A study of Mus musculus with 32 samples.

Results

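The genes described here are 33 genes of the integrated stress response and of the amino acid metabolism that it controls. They were chosen by symbol, as known sensors, transcription factors and targets of the pathway, with earlier results of these data known. Shares of members called therefore do not come from a choice blind to these data. All 33 are listed in the 4 raw count tables of the series. These tables hold 55291 genes for sorted astrocytes and for sorted oligodendrocyte lineage cells, 53700 for microglia and 17572 for cultured astrocytes. After a filter on low counts, 31 of the 33 could be tested in astrocytes (not Trib3 and Chac1), 28 in oligodendrocyte lineage cells (not Trib3, Chac1, Eif4ebp1, Stc2 and Cth), 26 in microglia (not Trib3, Chac1, Stc2, Asns, Aldh18a1, Pycr1 and Cth) and 33 in culture. The study followed glia of the TDP-43_Q331K mouse, a model of amyotrophic lateral sclerosis with a mutant transgene for TDP-43, which binds RNA, in 32 RNA sequencing libraries. Every group, controls included, carries this transgene, and the sources used here do not give its promoter. Mice without it were not analysed here, so an age effect cannot be told apart from ordinary ageing.

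Astrocytes were selected with the ACSA2 antibody from cortex and spinal cord at 3 months (4 libraries), 6 months (5 libraries) and 10 months (2 libraries). Cells of the oligodendrocyte lineage were selected with the O4 antibody from these tissues too, giving 4 libraries of 3-month and 4 of 6-month mice. Microglia were selected with Cd11b from cortex alone, with 3 libraries at 3 months and 4 at 10 months. Cultures of primary astrocytes were kept 14 days before replating and then received vehicle or 40 µM Omomyc for 48 h, with 3 libraries each. Omomyc, a small protein made from the dimerization domain of MYC, blocks the binding of MYC to its target genes. Nothing in the labels says that libraries of a group came from separate animals or cultures, so p-values measure the spread between these libraries, which may be technical.

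In the integrated stress response, kinases such as PERK (Eif2ak3, which senses unfolded protein in the endoplasmic reticulum) and GCN2 (Eif2ak4, which senses uncharged tRNA) phosphorylate the translation factor eIF2α. General translation falls, while that of a few messages, first of all Atf4, rises. ATF4 protein then activates genes for amino acid uptake, serine and asparagine synthesis, and feedback through Ppp1r15a, which removes the phosphate. Much of this control acts on translation, and RNA levels do not report it. In the brain, astrocytes are known as a main source of serine and as users of the cystine transporter encoded by Slc7a11.

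Levels are given in CPM (counts scaled to the effective library size) and changes as log2 fold changes ± SE. Total counts were between 6151583 and 20763190 per library in astrocytes, 9752907 and 18598533 in O4 cells, 4145129 and 5612071 in microglia and 30117025 and 37470972 in culture. Summed over 10 marker genes each, the astrocyte libraries held 23620 to 36230 CPM of astrocyte markers but also 16400 to 37780 CPM of myelinating oligodendrocyte markers. O4 libraries held 82220 to 169800 CPM of the latter and 509 to 760 CPM of astrocyte markers, and microglia libraries 25500 to 43960 CPM of microglia markers. The cultures held 8072 to 9858 CPM of astrocyte markers, with 5650 to 8963 CPM of mural and fibroblast markers and 1537 to 3427 CPM of microglia markers. The counting may split reads where exons overlap: by GENCODE on GRCm38, opposite-strand genes cover 10.4% of the exon bases of Psph, 8.0% of Eif2ak3 and 4.1% of Atf5, and for Ddit3 a same-strand gene model of the same symbol covers 6.1% and opposite-strand Mars 4.0%. Of the genes the results turn on, Slc38a2 lies at chr15:96687392-96699730, Pck2 at chr14:55540266-55551242, Hspa5 at chr2:34771970-34777547, Slc7a11 at chr3:49892526-50443614 and Psat1 at chr19:15904678-15947337 (GRCm38). In bulk RNA of this kind, fewer cells of a type and less RNA per cell cannot be told apart.

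ATF4 binds together with C/EBP proteins at composite sites whose core reads TGATGNAA. RefSeq windows on GRCm38.p6, from 250 bases before to 50 bases after a gene's start, were present for 30 of the 33 genes (Cth, Eif4ebp1 and Slc7a5 had none). On either strand, 8 of these 30 (26.67%) held the core, and 4.51% of the 27025 genes with a window did. The 8 were Slc7a11, Asns, Pck2, Nupr1, Pycr1, Herpud1, Chac1 and Trib3, and Slc7a11 held it on each strand. With a C at the open base, TGATGCAA, the count was 5 of 30 (16.67%) against 1.03% of genes. The members include genes chosen as known targets of the pathway, so a higher share than over all genes was built into the choice. The endoplasmic reticulum stress response element (ERSE) was found in Hspa5 and in 0.14% of genes, and the E-box CACGTG, a sequence that MYC and other factors bind, in Nupr1 and Aldh18a1 and in 8.09% of genes. Stretches around the matches follow for the genes among these that edgeR called with age or with Omomyc, including Hspa5 with its ERSE. Capitals mark the match, which for Pck2, Nupr1 and the second match of Slc7a11 lies on the other strand. A match is a description of these letters and not evidence of binding.
Slc7a11 (chr3:50443628-50443704, minus strand): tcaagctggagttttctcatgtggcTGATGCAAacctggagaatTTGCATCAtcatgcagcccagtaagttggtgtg
Asns (chr6:7693210-7693257, minus strand): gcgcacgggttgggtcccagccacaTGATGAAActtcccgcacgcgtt
Pck2 (chr14:55540138-55540195, plus strand): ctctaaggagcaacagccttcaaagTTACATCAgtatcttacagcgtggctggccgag
Nupr1 (chr7:126625548-126625605, minus strand): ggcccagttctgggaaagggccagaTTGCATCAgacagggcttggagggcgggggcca
Pycr1 (chr11:120643819-120643876, minus strand): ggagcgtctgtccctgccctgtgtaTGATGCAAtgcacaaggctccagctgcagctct
Hspa5 (chr2:34772000-34772068, plus strand): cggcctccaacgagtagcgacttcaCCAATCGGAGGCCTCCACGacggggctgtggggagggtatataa

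Within sorted astrocytes and O4 cells, levels of different genes were compared per length, with the TPM values that the authors deposited, which are scaled for gene length and library size. In astrocytes at 3 months the highest members were Hspa5, the main chaperone of the endoplasmic reticulum (406 ± 88.3 TPM, SD, n = 4), Psat1, the second enzyme of serine synthesis (385 ± 26.6), Slc3a2, the heavy chain shared by several amino acid exchangers (271 ± 33.1), and Phgdh, the first enzyme of serine synthesis (255 ± 7.28). Slc38a2, a transporter of small neutral amino acids, was at 202 ± 45.0 TPM and Atf4 at 124 ± 9.18 TPM. Ddit3, which encodes the stress factor CHOP, was at 62.0 ± 11.9 TPM. Asparagine synthetase (Asns), a classical ATF4 target, was at 2.10 ± 0.576 TPM, and Chac1, Stc2, Pycr1 and Trib3 were each under 1 TPM. O4 cells at 3 months had Psat1 (568 ± 38.1 TPM), Phgdh (306 ± 19.9) and Hspa5 (287 ± 23.3) at the top and Trib3, Chac1 and Stc2 at the bottom. Neighbours in this order are not apart beyond their spread for Hspa5 and Psat1 or for Slc3a2 and Phgdh in astrocytes, nor for Phgdh and Hspa5 in O4 cells.

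Other tables were made with other kits, so their CPM describe each table alone. In microglia, Hspa5 was at 1082 ± 110 CPM (n = 3) and Atf4 at 630 ± 76.3 CPM at 3 months, while Phgdh was at 1.15 ± 0.840 CPM and Psat1 at 36.1 ± 2.78 CPM. Asns had 0 counts in 2 of these 3 libraries, and Stc2 and Cth had 0 counts in all 7 microglia libraries. In vehicle cultures, Hspa5 was at 598 ± 51.2 CPM (n = 3), Psat1 at 156 ± 6.81, Atf4 at 156 ± 19.4, Phgdh at 107 ± 14.4 and Asns at 31.8 ± 7.14 CPM. Slc7a11 was at 11.3, 13.5 and 27.1 CPM in the 3 vehicle libraries.

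Astrocytes and O4 cells were compared over both shared ages, in 1 fit of 9 and 8 libraries. Astrocytes were richer in the cystine transporter gene Slc7a11, in the transsulfuration gene Cth and in the exchanger genes Slc7a5 and Slc3a2, and poorer in Pycr1, Mthfd2, Atf5 and Asns. Of 30 members tested, 12 were higher in astrocytes, 11 lower and 7 did not pass, which is 76.7% called where 74.6% of all 16363 genes were called (38.7% higher and 35.9% lower), so the share itself is not particular to these genes. Their median was 0.03 and that of all genes 0.03.

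Slc7a11 had between 276.5 and 416 CPM in astrocytes (median 315) and between 2.40 and 6.80 CPM in O4 cells (median 4.95). The ranges lie far apart, and the difference was 6.13 ± 0.17 (69.9-fold, adjusted p = 9.75e-17). Cth, which makes cysteine from cystathionine, had 12.7 to 21.6 CPM (median 16.0) in astrocytes and 0.175 to 4.97 CPM (median 0.361) in O4 cells, a difference of 4.46 ± 0.40 (adjusted p = 2.51e-08). Its highest O4 value belonged to replicate 1 of 6 months. Slc7a5, the light chain of the leucine transporter, had 54.0 to 94.8 CPM in astrocytes and 4.02 to 39.0 CPM in O4 cells (2.66 ± 0.27, adjusted p = 2.42e-07). Nupr1, a small stress-induced chromatin protein, had 7.48 to 19.2 CPM against 0.870 to 4.88 CPM (2.72 ± 0.20, adjusted p = 7.16e-11). For these 4 genes no astrocyte library overlapped an O4 library. Also higher in astrocytes were Eif4ebp1, a translation inhibitor (2.23 ± 0.21), Slc3a2 (1.59 ± 0.07), Pck2, mitochondrial PEP carboxykinase (1.35 ± 0.12), Sesn2, a leucine sensor (1.25 ± 0.14), Herpud1, of endoplasmic reticulum degradation (0.66 ± 0.11), Psph, the last enzyme of serine synthesis (0.65 ± 0.08), Aldh18a1, of proline synthesis (0.54 ± 0.13) and Gpt2, an alanine transaminase (0.30 ± 0.09).

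In the other direction, Pycr1, the last enzyme of proline synthesis, had 0.287 to 1.24 CPM in astrocytes and 2.29 to 6.32 CPM in O4 cells (-2.52 ± 0.24, adjusted p = 4.27e-09). Mthfd2, a mitochondrial folate enzyme, had 6.93 to 18.2 CPM in astrocytes (median 9.85) and 21.1 to 34.7 CPM in O4 cells (median 32.1), a difference of -1.46 ± 0.12 (adjusted p = 2.67e-10). Ddit3 had 12.5 to 33.2 CPM against 35.6 to 48.9 CPM (-0.81 ± 0.12, adjusted p = 3.47e-06). Ranges did not overlap for these 3 genes. Asns had 0.863 to 2.77 CPM (median 1.46) against 2.35 to 3.82 CPM (median 2.93), with overlap (-0.91 ± 0.20, adjusted p = 0.000414). Atf4 had 71.1 to 95.2 CPM (median 78.8) against 87.9 to 110 CPM (median 101), with overlap (-0.34 ± 0.06, adjusted p = 6.91e-05). The remaining genes lower in astrocytes were the ATF-family factor gene Atf5 (-1.24 ± 0.13), the mTORC1 inhibitor gene Ddit4 (-1.07 ± 0.36), Slc38a2 (-0.90 ± 0.11), Eif2ak3 (-0.71 ± 0.07), Psat1 (-0.68 ± 0.10) and Cebpg, an ATF4 dimer partner (-0.39 ± 0.07).

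Taken at each age alone, 10 of 30 members were higher in astrocytes at both ages (33.33%, where 28.6% of all genes were) and 8 lower at both (26.67%, where 24.1% were), shares not far from those of all genes. Slc7a1, the transporter of arginine and lysine, was called in opposite directions, as 1.82% of all genes were, at 1.21 ± 0.34 at 3 months and -0.76 ± 0.31 at 6 months. The Slc38a2 difference was -0.25 ± 0.17 at 3 months, which did not pass (adjusted p = 0.195), and -1.56 ± 0.16 at 6 months. Since the astrocyte libraries also hold myelin transcripts, differences towards O4 cells are measured against a mixed sample.

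Of 20 cytosolic aminoacyl-tRNA synthetase genes, 11 were lower in astrocytes and 1 higher, among them Iars1 (-0.88 ± 0.06), Gars1 (-0.77 ± 0.06), Sars1 (-0.83 ± 0.08) and Eprs1 (-0.51 ± 0.05). Of 20 other amino acid transporter genes tested, 9 were higher and 8 lower, led by the glutamate and neutral amino acid transporter genes Slc1a4 (6.47 ± 0.15), Slc1a3 (5.90 ± 0.17) and Slc1a2 (6.30 ± 0.26) and the arginine transporter gene Slc7a2 (5.99 ± 0.22). Of 16 other serine, glycine and one-carbon genes, 8 were higher and 6 lower, led by Aldh1l1 (5.08 ± 0.15), itself an astrocyte marker, and the glycine cleavage genes Gldc (6.08 ± 0.20), Amt (1.35 ± 0.08) and Gcsh (0.85 ± 0.07). Of 19 genes of transsulfuration, glutathione, proline and aspartate metabolism, 10 were higher and 5 lower, led by Glud1 (2.38 ± 0.09), Gss (-1.30 ± 0.08), Oat (1.25 ± 0.08) and Prodh (5.33 ± 0.29). Of 23 other unfolded protein response genes, 8 were higher and 9 lower, led by Dnajb9 (1.17 ± 0.09), Sdf2l1 (-1.31 ± 0.14), Edem1 (-0.66 ± 0.08) and Atf6 (-0.51 ± 0.07). Of 19 control genes around eIF2, 5 were higher and 9 lower, led by the kinase gene Eif2ak2 (1.92 ± 0.19), Eif2s3x (-0.53 ± 0.06), Eif2s2 (-0.44 ± 0.05) and Eif2b3 (-0.74 ± 0.09). Of 16 other reported ATF4 or stress targets, 3 were higher and 11 lower, led by Ndrg1 (-1.65 ± 0.10), Vldlr (-1.05 ± 0.07), Gadd45a (-1.59 ± 0.13) and Vegfa (2.79 ± 0.24).

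**Figure D1:**
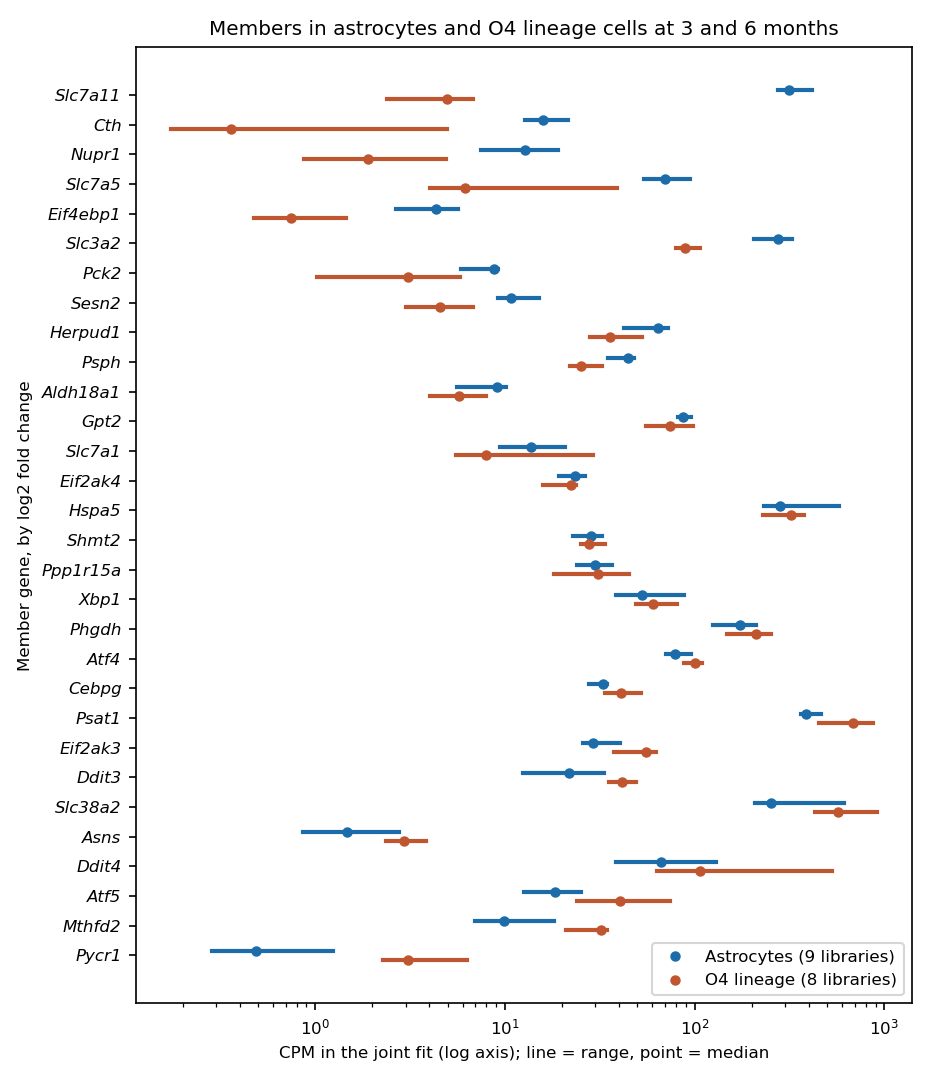
CPM of the 30 tested members on a log axis, in 9 astrocyte libraries (blue) and 8 O4 lineage libraries (orange) of 3 and 6 months, ordered by log2 fold change, with lines for the range and points for the median. Slc7a11 and Cth stand at the top and Pycr1 at the bottom, each with ranges that do not meet.

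Between 3 and 6 months in astrocytes, 6 members fell and 1 rose. Hspa5 and Xbp1 (a transcription factor of the unfolded protein response), 2 of the 3 endoplasmic reticulum genes of the list, were lower at 6 months, as were Eif2ak3, Slc38a2, Slc7a1 and Mthfd2, and Pck2 was higher. The other endoplasmic reticulum gene, Herpud1, did not pass (0.31 ± 0.12). That is 6 lower, 1 higher and 24 not passed of 31 tested (19.4% lower and 3.23% higher), where 8.29% of all 16189 genes tested were lower and 6.28% higher (14.6% called in all). The median change was 0.03 for the members and 0.00 for all genes. Among the other 23 unfolded protein response genes, 13 fell and 0 rose, with a median of -0.32. They included Calr (-0.69 ± 0.11, adjusted p = 0.00126), a chaperone that binds calcium, Manf (-0.59 ± 0.10), Hsp90b1 (-0.51 ± 0.10) and Sdf2l1 (-1.16 ± 0.24). The count of 13 became 7 without 3-month replicate 1, 7 without 3-month replicate 3, 6 without 3-month replicate 4 and 7 without 6-month replicate 3.

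Slc38a2 was at 531, 416, 490 and 706 CPM in the 3-month libraries and at 248, 233, 260, 277 and 277 CPM at 6 months. All 6-month values lie under all 3-month values (-1.05 ± 0.13, adjusted p = 0.000301). Hspa5 was at 472, 395, 528 and 669 CPM, then at 319, 258, 271, 286 and 301 CPM. It too has no overlap, and the highest value of all is 3-month replicate 4 (-0.85 ± 0.13, adjusted p = 0.00086). Xbp1 was at 77.7, 61.5, 73.4 and 101 CPM, then at 43.6, 51.1, 54.4, 55.5 and 58.0 CPM, again without overlap (-0.58 ± 0.12, adjusted p = 0.00549). Eif2ak3 was lower by a smaller amount (-0.42 ± 0.09, adjusted p = 0.00585). Leaving out any 1 of the 9 libraries ended none of these 4 calls.

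Pck2 was at 7.23, 7.60, 6.79 and 6.75 CPM at 3 months and 10.3, 10.3, 10.3, 9.69 and 9.70 CPM at 6 months, all higher (0.51 ± 0.13, adjusted p = 0.0163). Without 3-month replicate 4 (0.50) or without the filter on low counts (0.52) it did not pass. Slc7a1 was at 15.4, 20.2, 23.4 and 18.6 CPM, then at 20.1, 12.02, 12.9, 10.4 and 12.5 CPM, where 6-month replicate 1 lies among the younger libraries (-0.53 ± 0.17, adjusted p = 0.0429). Its call was lost without 3-month replicates 2 (-0.48), 3 (-0.42) or 4 (-0.53) and without 6-month replicates 2 (-0.50), 3 (-0.52), 4 (-0.44) or 5 (-0.51). Mthfd2 was at 11.1, 13.3, 13.7 and 21.0 CPM, then at 9.29, 11.4, 10.3, 10.2 and 7.59 CPM, with overlap (-0.63 ± 0.19, adjusted p = 0.0354). Its call was lost without 3-month replicates 3 (-0.65) or 4 (-0.36) and without 6-month replicates 1 (-0.60), 3 (-0.65), 4 (-0.65) or 5 (-0.55). Slc7a1 and Mthfd2 therefore rest on the exact set of libraries.

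The factors named for the pathway itself did not pass. Atf4 was at 82.3, 82.8, 89.1 and 96.7 CPM at 3 months and 107, 79.2, 94.0, 87.0 and 79.7 CPM at 6 months (0.02 ± 0.10, adjusted p = 0.903), with full overlap. Ddit3 was at 29.4, 24.2, 35.9 and 38.3 CPM, then at 31.3, 22.9, 23.7, 22.0 and 13.7 CPM (-0.52 ± 0.18, adjusted p = 0.0686). Without 3-month replicate 2 (-0.60) or 6-month replicate 1 (-0.62) it was called. Asns was at 2.16, 1.63, 1.09 and 2.02 CPM, then at 1.05, 0.961, 1.98, 1.56 and 3.04 CPM (0.03 ± 0.33, adjusted p = 0.97). Herpud1 (0.31 ± 0.12, adjusted p = 0.0897) was called at 0.51 without 3-month replicate 4, Slc7a11 (-0.27 ± 0.11) at -0.37 and Ddit4 (0.44 ± 0.28) at 0.62 without 6-month replicate 5.

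Myelin transcripts in these sorts were also lower at 6 months, with summed marker levels of 24090 to 37780 CPM at 3 months and 16400 to 25030 CPM at 6 months, where 5 of 10 markers fell and 0 rose. Choroid plexus marker sums were 246 to 1559 CPM, then 164 to 329 CPM (4 of 10 markers lower, 0 higher). Endothelial markers were lower for 2 of 10 with 0 higher (median -0.63), neuron markers lower for 3 of 10 with 0 higher, dividing cell markers lower for 2 of 6 with 0 higher, and mural and fibroblast markers lower for 1 of 8 with 0 higher. Ependymal markers were higher for 6 of 8 with 0 lower, and 1 gene each was higher, with 0 lower, among microglia, precursor and immediate early genes. Their part in the changes of the members was not tested.

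The remaining pathway lists held few calls at 6 months. Of the 20 synthetase genes 2 fell and 0 rose (Iars1 at -0.53 ± 0.10 and Eprs1 at -0.31 ± 0.07), and of 19 control genes around eIF2 only Cebpb rose (0.87 ± 0.25). Aldh1l2, a mitochondrial folate enzyme, was the 1 gene to fall of 16 serine and one-carbon genes (-0.95 ± 0.25, 0 rose). Of 19 other transporter genes 3 rose (Slc38a3 at 0.38 ± 0.12, Slc7a3 at 1.19 ± 0.38 and Slc7a10 at 0.34 ± 0.11) and 1 fell (Slc6a6, -0.47 ± 0.11). Of 19 transsulfuration, glutathione, proline and aspartate genes 2 fell, among them Gss (-0.45 ± 0.13), and 0 rose. Of 16 other reported targets 3 fell and 2 rose, among them Cdkn1a (-0.92 ± 0.18), Vldlr (-0.49 ± 0.11), Ndrg1 (-0.71 ± 0.16) and Bbc3 (0.90 ± 0.22).

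**Figure D2:**
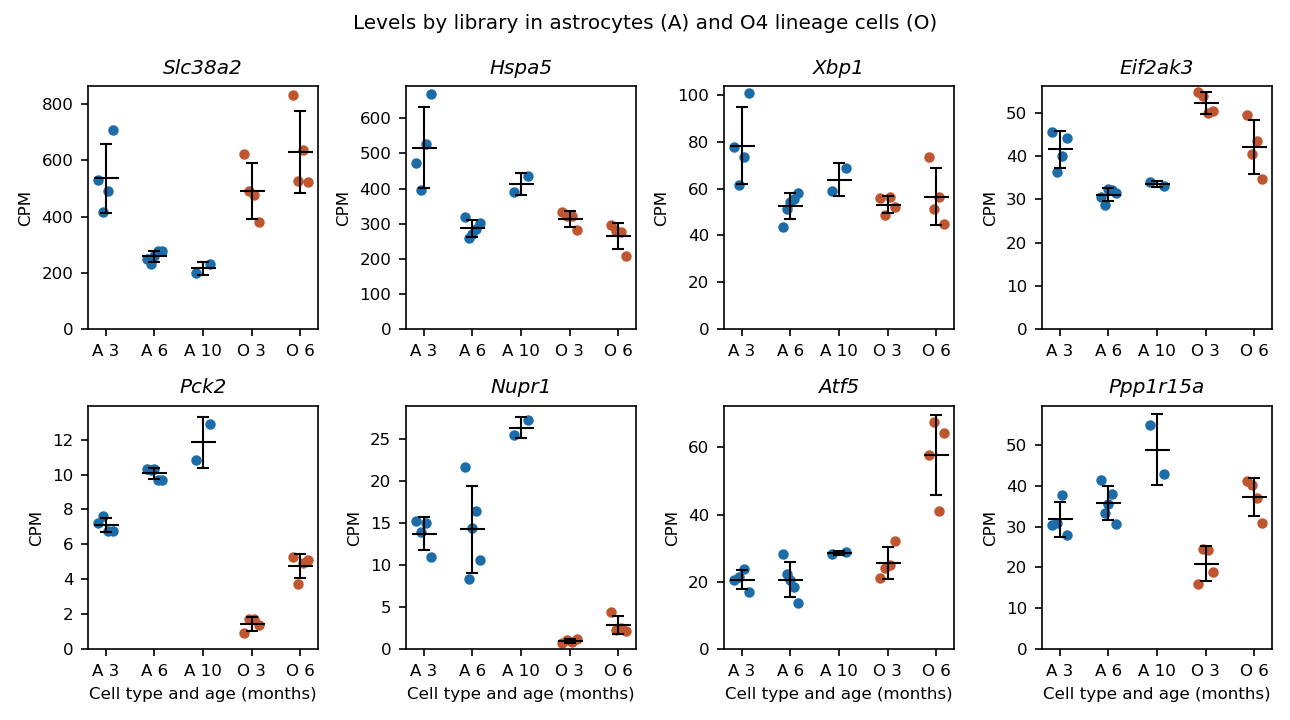
CPM per library of 8 members in astrocytes (A, blue) at 3, 6 and 10 months and in O4 lineage cells (O, orange) at 3 and 6 months, with bars for the mean and SD. Slc38a2, Hspa5, Xbp1 and Eif2ak3 are lower in all 6-month than in all 3-month astrocyte libraries, while Pck2 is higher in the older libraries of both cell types.

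By 10 months, with 2 libraries, Slc38a2 was still lower than at 3 months, while the endoplasmic reticulum genes no longer passed. Of 31 members, 4 were higher (Pycr1, Nupr1, Pck2 and Ppp1r15a), 3 lower (Slc38a2, Slc7a11 and Gpt2) and 24 not passed. This is 22.6% called, against 22.7% of all genes (11.5% higher, 11.2% lower), so the share is that of genes in general. The median change was 0.05 for members and 0.02 for all genes. This comparison shares its 3-month libraries with the one above.

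Slc38a2 was at 200 and 231 CPM at 10 months (-1.31 ± 0.17, adjusted p = 0.000203), under all 4 of the 3-month values, and it passed in each of the 6 fits that left out 1 library. Pck2 was at 10.8 and 12.9 CPM (0.75 ± 0.16, adjusted p = 0.00395), above all 3-month values. Its call was lost without 10-month replicate 2 (0.61). Nupr1 was at 15.2, 13.9, 14.9 and 10.9 CPM at 3 months and 25.4 and 27.2 CPM at 10 months, without overlap (0.95 ± 0.25, adjusted p = 0.0122). Ppp1r15a was at 30.4, 31.0, 37.8 and 27.8 CPM, then at 55.0 and 42.8 CPM, also without overlap (0.63 ± 0.14, adjusted p = 0.00552). Slc7a11 was at 461, 463, 405 and 360 CPM, then at 280.5 and 296 CPM, below all younger libraries (-0.55 ± 0.15, adjusted p = 0.0145). Pycr1 was at 0.324, 0.543, 0.543 and 0.623 CPM, then at 0.964 and 2.04 CPM (1.52 ± 0.52, adjusted p = 0.0419), and Gpt2 fell by less (-0.37 ± 0.10, adjusted p = 0.0178).

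Most of these calls need both 10-month libraries. Ppp1r15a did not pass without 10-month replicate 1 (0.44). Nupr1 (1.0 and 0.90), Slc7a11 (-0.51 and -0.59) and Gpt2 (-0.38 and -0.36) did not pass without 10-month replicate 1 or without replicate 2, nor did Gpt2 without the filter (-0.36). Pycr1, a gene of few counts here, lost its call in DESeq2 (1.54), without the filter on low counts (1.52) and with any 1 of the 6 libraries left out, with values from 0.87 without 10-month replicate 2 to 1.94 without 10-month replicate 1 (1.37, 1.54, 1.54 and 1.70 without 3-month replicates 1 to 4). Without 3-month replicate 1, Slc7a1 (-0.69) was called, and without 3-month replicate 2, Eif2ak3 (-0.36) and Psat1 (-0.37) were.

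Atf4 was at 90.0 and 105 CPM at 10 months (0.15 ± 0.13, adjusted p = 0.414), Ddit3 at 30 and 34.7 CPM (0.01 ± 0.23, adjusted p = 0.982) and Asns at 2.14 and 1.67 CPM (0.10 ± 0.43, adjusted p = 0.89). Ddit3 and Asns lie within or beside the range of the 3-month values, and 1 of the 2 Atf4 values lies above it. Hspa5, at 390 and 435 CPM, and Xbp1, at 58.8 and 68.7 CPM, did not pass against 3 months (adjusted p = 0.165 and 0.18).

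Immediate early genes, which respond to tissue handling as well as to activity, were also higher at 10 months. Their sum over 14 genes was 464 to 619 CPM at 3 months and 1051 and 1323 CPM at 10 months, with 9 of 12 tested genes higher and 0 lower and Jund at 0 counts in both older libraries. Choroid plexus marker sums were 246 to 1559 CPM, then 39.3 and 97.6 CPM (6 of 10 lower, 0 higher), and myelinating oligodendrocyte markers fell for 5 of 10 and endothelial markers for 4 of 10 with 0 higher. Ependymal markers rose for 4 of 8, microglia markers for 2 of 7 and precursor markers for 2 of 8, with 0 lower. Mural and fibroblast markers were lower for 2 of 8 and higher for 1, and 1 astrocyte and 1 dividing cell marker fell and 1 neuron marker rose. Mitochondrial genes took 5.93% to 7.71% of counts at 3 months and 5.24% and 5.25% at 10 months. Their part in the result was not tested.

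In the other unfolded protein response genes 6 of 23 fell and 0 rose at 10 months, led by Edem1 (-0.76 ± 0.15), Atf6 (-0.48 ± 0.12), Sel1l (-0.42 ± 0.12) and Canx (-0.40 ± 0.12). That count was 3 without 3-month replicate 3, 0 without 10-month replicate 1 and 1 without replicate 2. Cebpb rose (1.49 ± 0.30) and Ppp1r15b, the constitutive counterpart of Ppp1r15a, fell (-0.72 ± 0.12), the 2 calls among 19 control genes. Of the 20 synthetase genes 2 fell and 0 rose (Gars1 at -0.34 ± 0.12 and Iars1 at -0.39 ± 0.14), which became 1 without 3-month replicates 1 or 2 and 0 without any other of the 6 libraries. Of 19 other transporter genes 3 rose and 3 fell, among them Slc7a3 (1.79 ± 0.45), Slc6a6 (-0.56 ± 0.14), Slc38a9 (-0.51 ± 0.14) and Slc7a10 (0.43 ± 0.14). Of 19 transsulfuration, glutathione, proline and aspartate genes 4 rose and 2 fell, among them Gclm (-0.55 ± 0.13), Cbs (0.52 ± 0.13) and Prodh (0.78 ± 0.21). Of 16 other reported targets 2 rose and 3 fell, among them Bbc3 (1.78 ± 0.26), Vldlr (-0.92 ± 0.15), Klhl24 (-0.74 ± 0.12) and Lonp1 (0.66 ± 0.14). Of 16 serine and one-carbon genes 0 rose and 0 fell.

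Between 6 and 10 months, 0 of 31 members were called, where 0.908% of all genes were (0.574% higher, 0.334% lower). By edgeR's unadjusted p under 0.05 there were 8, and by DESeq2 5 passed adjustment. Shares of all genes by these measures are not given here, so neither count can be set against the 0.908%. In DESeq2 Nupr1 (0.87, adjusted p = 0.0266) and Hspa5 (0.51, adjusted p = 0.044) were higher, and Herpud1 (-0.50, adjusted p = 0.0499), Slc7a5 (-0.54, adjusted p = 0.0273) and Gpt2 (-0.32, adjusted p = 0.0408) lower. In edgeR these were 0.88 ± 0.24 for Nupr1 and 0.52 ± 0.15 for Hspa5 (adjusted p = 0.0821 and 0.1), and Nupr1 was called without 6-month replicate 1 (1.03). Immediate early genes were higher at 10 months for 4 of 12 with 0 lower, and their part in these values was not tested. Atf4 (0.13 ± 0.12), Ddit3 (0.53 ± 0.22) and Asns (0.07 ± 0.41) did not pass. Of the pathway genes, the chaperone-like Creld2 rose (0.64 ± 0.14), and Ppp1r15b (-0.51 ± 0.12) and Klhl24 (-0.52 ± 0.12) fell.

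O4 cells showed another set of changes between 3 and 6 months. Pck2, Atf5, Nupr1 and Ppp1r15a were higher in every 6-month library, and the transporter genes Slc7a5 and Slc7a1 were higher in 3 of 4. In total 6 members were higher, 0 lower and 22 not passed of 28 tested. This is 21.4% called higher, against 14.9% of 14050 genes higher and 9.46% lower (24.4% called in all). The median change was 0.05 for the members and 0.02 for all genes.

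Pck2 was at 0.903, 1.74, 1.74 and 1.39 CPM at 3 months and 5.26, 3.75, 4.92 and 5.13 CPM at 6 months (1.69 ± 0.25, adjusted p = 0.00115). Atf5 was at 21.1, 24.3, 24.9 and 32.2 CPM, then at 57.8, 67.7, 41.2 and 64.4 CPM (1.18 ± 0.17, adjusted p = 0.00135). Nupr1 was at 0.764, 1.13, 0.819 and 1.24 CPM, then at 4.45, 2.24, 2.53 and 2.18 CPM (1.53 ± 0.31, adjusted p = 0.00614). For these genes the ages do not overlap. Ppp1r15a was at 16.0, 24.6, 24.3 and 18.9 CPM, then at 41.3, 40.2, 36.9 and 30.8 CPM, again without overlap (0.83 ± 0.15, adjusted p = 0.0033). Leaving out any 1 of the 8 libraries ended none of these 4 calls.

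Slc7a5 was at 4.31, 6.11, 4.60 and 3.56 CPM at 3 months and 4.45, 24.1, 35.8 and 19.9 CPM at 6 months (2.17 ± 0.54, adjusted p = 0.0224). Slc7a1 was at 6.32, 6.72, 5.68 and 7.19 CPM, then at 5.02, 23.3, 26.8 and 19.0 CPM (1.52 ± 0.43, adjusted p = 0.0333). In both genes 6-month replicate 1 sits with the young libraries and the other 3 stand above. The Slc7a5 call was lost without 3-month replicates 1 (2.13), 3 (2.16) or 4 (2.06) or 6-month replicate 2 (2.09), and without the filter on low counts (2.12). The Slc7a1 call was lost without 3-month replicates 1 (1.51), 2 (1.54), 3 (1.46) or 4 (1.57) and without 6-month replicates 2 (1.38), 3 (1.27) or 4 (1.5), and without the filter (1.47).

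Blood vessel transcripts were also higher at 6 months. The sum of 10 endothelial markers was 72.5, 90.8, 71.7 and 86.1 CPM at 3 months and 272, 495, 747 and 568 CPM at 6 months, with 10 of 10 markers higher and none at 0. The 6-month library with the lowest sum, replicate 1, is also the one in which Slc7a5 and Slc7a1 stayed at the young level. Its sum of 272 CPM still lies above all 3-month sums. The library with the highest sum has the highest Slc7a5 and Slc7a1. Between these, replicate 4 has a higher sum than replicate 2 but lower Slc7a5 and Slc7a1. Mural and fibroblast marker sums were 45.6 to 81.2 CPM, then 141 to 319 CPM (4 of 7 higher, 0 lower). Immediate early genes were at 1205 to 1512 CPM, then 2070 to 3062 CPM (10 of 12 higher, 0 lower), and choroid plexus sums at 38.4 to 924 CPM, then 307 to 3933 CPM (3 of 10 higher, 0 lower). Neuron markers were higher for 4 of 10 and lower for 1, myelinating markers lower for 6 of 10 and higher for 2, precursor markers lower for 3 of 8 with 0 higher, dividing cell markers lower for 2 of 3 with 0 higher and microglia markers lower for 1 of 9 with 0 higher. Mitochondrial genes took 4.06% to 4.44% of counts at 3 months and 6.41% (replicate 1), 10%, 8.52% and 9.03% at 6 months, without overlap. The part of these in the changes of the members was not tested.

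**Figure D3:**
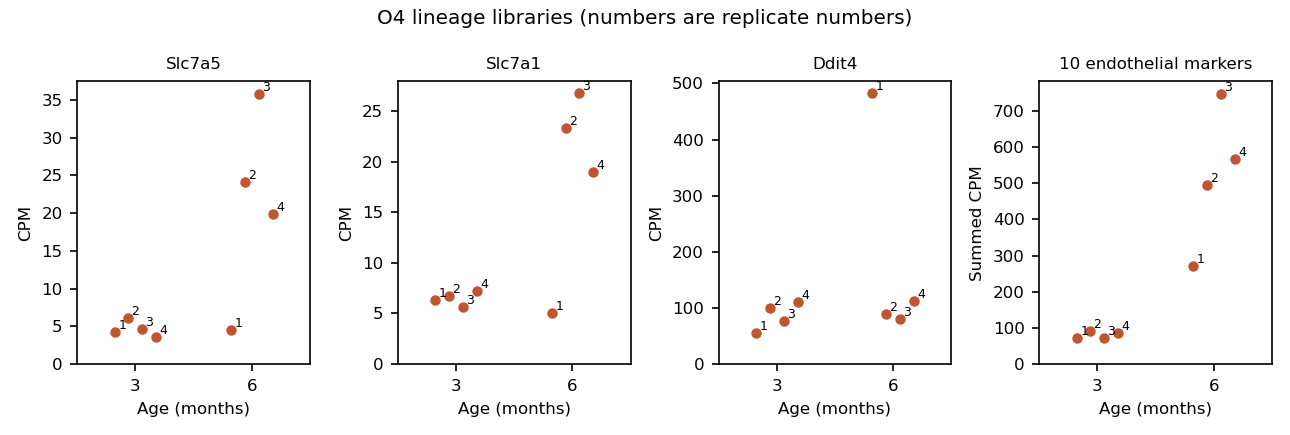
CPM per O4 lineage library of Slc7a5, Slc7a1 and Ddit4 and the summed CPM of 10 endothelial markers at 3 and 6 months, with replicate numbers beside the points. At 6 months, replicate 1 has the lowest Slc7a5, Slc7a1 and endothelial sum and, at 482 CPM, by far the highest Ddit4.

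Replicate 1 of the 6-month O4 cells stood apart in other members. Ddit4 was at 482 CPM there and at 80.8 to 112 CPM in the other 6-month libraries. Phgdh was at 231 CPM against 134 to 136, Psat1 at 798 against 414 to 485, Gpt2 at 89.5 against 50.9 to 56.7 and Cth at 4.53 against 0.242 to 0.437 CPM. Without this library 29 members were tested, of which 6 fell (20.7%) and 7 rose (24.1%), and among all genes 15.4% were then lower and 18.8% higher. Those lower were the serine synthesis genes Phgdh (-0.55, adjusted p = 0.000168) and Psat1 (-0.46, adjusted p = 0.000927), with Eif2ak3 (-0.40), Mthfd2 (-0.38), Hspa5 (-0.31) and Gpt2 (-0.27), and Cebpg was then called higher (0.39). With all libraries Phgdh was at -0.31 ± 0.17 (adjusted p = 0.219) and Psat1 at -0.21 ± 0.18 (adjusted p = 0.44). Psph, at -0.27 ± 0.11, was called at -0.36 without 3-month replicate 4.

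Atf4 was at 91.4, 93.1, 96.3 and 84.4 CPM in O4 cells at 3 months and 83.6, 88.7, 96.5 and 80.5 CPM at 6 months (-0.06 ± 0.08, adjusted p = 0.601). Ddit3 was at 33.8, 39.3, 34.8 and 35.6 CPM, then at 39.0, 44.6, 39.9 and 32.5 CPM (0.12 ± 0.10, adjusted p = 0.398). Asns was at 3.06, 2.51, 2.51 and 2.86 CPM, then at 2.35, 2.66, 2.16 and 3.50 CPM (-0.04 ± 0.22, adjusted p = 0.905). The ages overlap for each of these 3 genes.

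Outside the 33, 8 of 20 synthetase genes fell and 0 rose, among them Yars1 (-0.38 ± 0.08), Wars1 (-0.36 ± 0.08) and Iars1 (-0.29 ± 0.07). The count was 14 when 6-month replicate 1 was left out, 4 when 3-month replicate 1 was, and 5 for 3-month replicate 4 or 6-month replicate 2. Without 6-month replicate 1, 15.4% of all genes were lower, beside 9.46% with all libraries. Of 23 other unfolded protein response genes 10 fell and 0 rose, led by the disulfide isomerase genes Pdia4 (-0.58 ± 0.09), Pdia6 (-0.39 ± 0.07) and Pdia3 (-0.43 ± 0.08) and by Canx (-0.36 ± 0.07), with a median of -0.29 over the list. Among control genes Atf3, which is also an immediate early gene (1.61 ± 0.44), Eif2ak2 (1.23 ± 0.36) and Cebpb (1.09 ± 0.33) rose and Eif2s2 (-0.22 ± 0.07) fell, of 19. Of 20 other transporter genes 3 rose and 1 fell: Slc38a5 (3.44 ± 0.39), Slc7a7 (1.79 ± 0.39), Slc7a6 (0.33 ± 0.10) and Slc6a9 (-0.50 ± 0.11). Of 19 transsulfuration, glutathione, proline and aspartate genes 4 fell and 0 rose, among them Gss (-0.49 ± 0.08), Gclc (-0.30 ± 0.08) and Oat (-0.39 ± 0.12). Mtr, methionine synthase, rose (0.87 ± 0.15) as the 1 call of 16 serine and one-carbon genes. Of 15 other reported targets 2 rose (Nfe2l1 at 0.74 ± 0.15 and Bbc3 at 0.80 ± 0.21) and Ndrg1 fell (-0.26 ± 0.08).

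**Figure D4:**
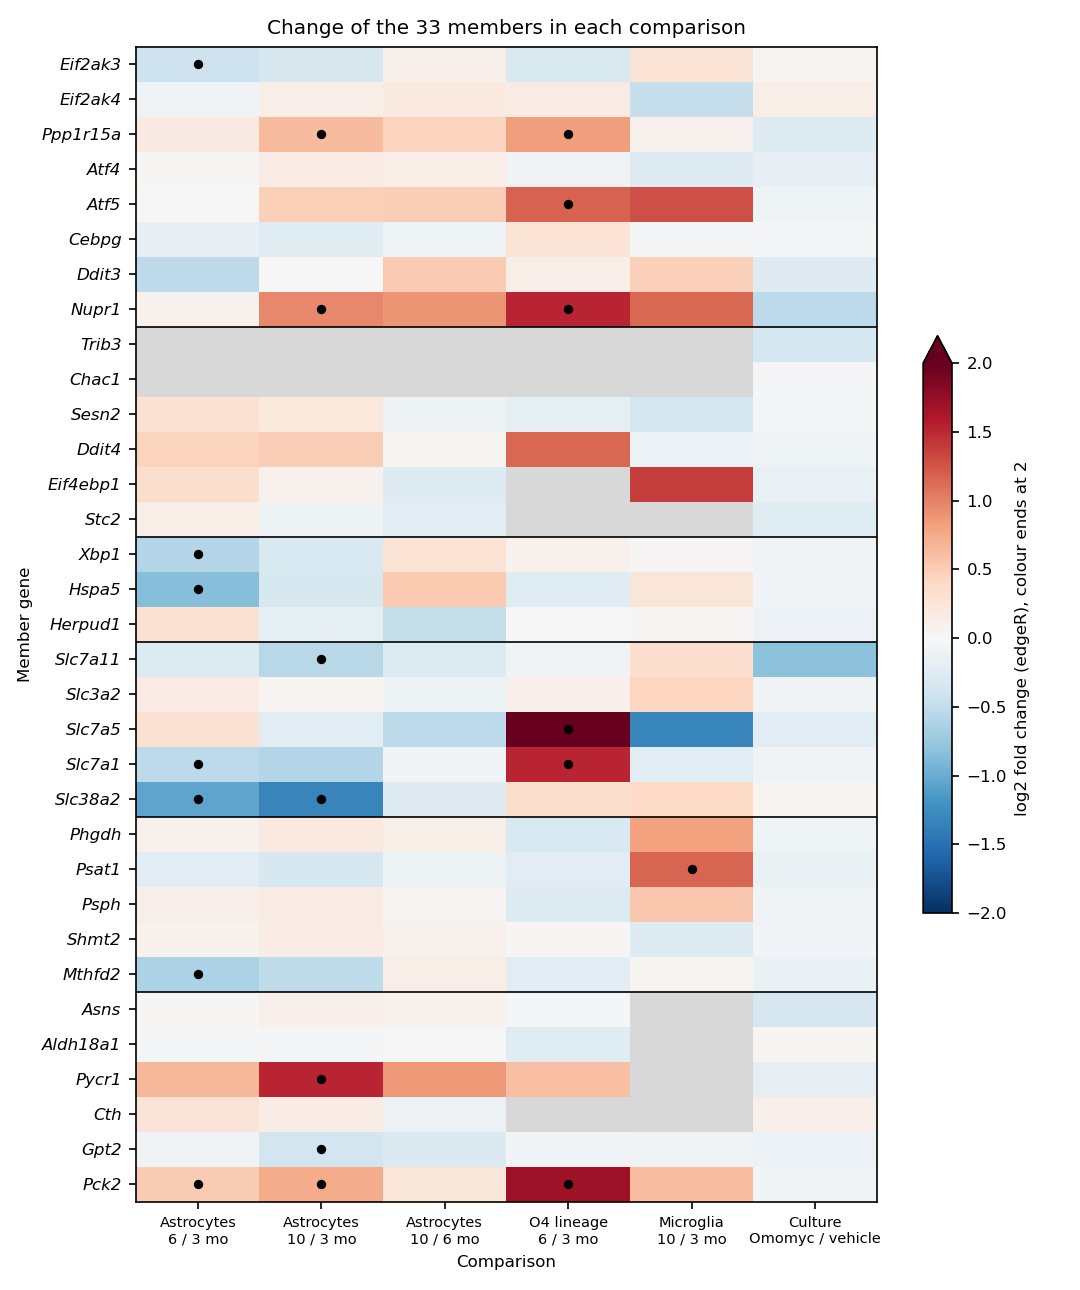
Log2 fold change (colour) of each of the 33 members in 6 comparisons, with a dot where the adjusted p was under 0.05 and grey where the gene was not tested. Horizontal lines part core genes, effectors, endoplasmic reticulum genes, transporters, serine and one-carbon enzymes and other enzymes. Dots are most frequent in the astrocyte and O4 columns against 3 months, where 14.6%, 22.7% and 24.4% of all genes were called. The columns for astrocytes at 10 against 6 months and for culture, which shows the fit without the block, hold 0 dots.

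Whether the change from 3 to 6 months differs between astrocytes and O4 cells was tested as an interaction in the joint fit, as the change in astrocytes minus that in O4 cells. Slc38a2 fell in astrocytes, while no change passed in O4 cells, where it was at 622, 490, 475 and 381 CPM at 3 months and 831, 525, 635 and 523 CPM at 6 months, a difference of -1.31 ± 0.23 (adjusted p = 0.000617). The difference was -1.97 ± 0.46 for Slc7a1 (adjusted p = 0.00827), -1.77 ± 0.52 for Slc7a5 (adjusted p = 0.0324), -1.38 ± 0.40 for Nupr1 (adjusted p = 0.0216), -1.10 ± 0.26 for Atf5 (adjusted p = 0.0065), -1.09 ± 0.25 for Pck2 (adjusted p = 0.00486), -0.58 ± 0.19 for Xbp1 (adjusted p = 0.0469) and -0.56 ± 0.19 for Ppp1r15a (adjusted p = 0.0496). So 8 of 30 members were lower, 0 higher and 22 not passed (26.7% lower), where 9.97% of 16363 genes were lower and 6.44% higher (16.4% called in all). The median over the members was -0.24 and over all genes 0.02.

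Slc7a1, Slc38a2, Atf5 and Pck2 passed in all 17 fits that left out 1 library. That of Nupr1 was lost without 3-month O4 replicates 1 (-1.28) or 3 (-1.29). The call of Slc7a5 was lost when low counts were not filtered, and in 7 of the 17 fits, without 3-month astrocyte replicates 2 (-1.72) or 3 (-1.73), 3-month O4 replicates 1 (-1.73), 3 (-1.75) or 4 (-1.66) and 6-month O4 replicates 2 (-1.69) or 3 (-1.39). Ppp1r15a was lost in 10 of them. These left out 3-month astrocyte replicates 2 (-0.56) or 3 (-0.47), 6-month astrocyte replicates 2 (-0.57), 3 (-0.60) or 5 (-0.55), 3-month O4 replicates 1 (-0.45) or 4 (-0.51), and 6-month O4 replicates 1 (-0.51), 2 (-0.52) or 3 (-0.57). Xbp1 was lost in 12. These left out 3-month astrocyte replicates 1 (-0.62), 3 (-0.61) or 4 (-0.44), 6-month astrocyte replicates 1 (-0.55) or 2 (-0.60), 3-month O4 replicates 1 (-0.60), 2 (-0.54), 3 (-0.60) or 4 (-0.56), and 6-month O4 replicates 1 (-0.42), 2 (-0.62) or 3 (-0.58). Calls were also gained. Hspa5 (-0.51 ± 0.18, adjusted p = 0.0596) was called without 3-month astrocyte replicates 1 (-0.59) or 2 (-0.61), 6-month astrocyte replicates 1 (-0.59) or 5 (-0.57) or 6-month O4 replicate 4 (-0.61). Without 6-month O4 replicate 1, Sesn2 (0.79), Phgdh (0.71) and Herpud1 (0.62) were called higher and Cebpg (-0.46) lower. Ddit3 (-0.72) was called without 6-month astrocyte replicate 1 and Phgdh (0.55) without 6-month astrocyte replicate 5. Psph (0.47 ± 0.16) was called without 6-month astrocyte replicate 2 (0.50), 3-month O4 replicate 4 (0.56) or 6-month O4 replicate 3 (0.53).

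Atf4 (0.18 ± 0.13), Ddit3 (-0.55 ± 0.23) and Asns (0.16 ± 0.41) did not pass for this difference (adjusted p = 0.376, 0.117 and 0.826). Markers of other cells differed too, with 10 of 10 endothelial, 6 of 10 choroid plexus, 7 of 9 mural and fibroblast and 5 of 12 immediate early genes lower and 0 of each higher. Neuron markers were lower for 4 of 10, myelinating markers for 3 of 10 and ependymal markers for 2 of 8, with 0 higher, while microglia markers were higher for 3 of 9, astrocyte markers for 2 of 10 and precursor markers for 2 of 8, with 0 lower. Their part in the result was not tested. Slc38a5 had the largest difference among pathway genes called (-3.98 ± 0.53). Of the 20 synthetase genes 4 were higher and 0 lower, among them Lars1 (0.54 ± 0.12), Rars1 (0.45 ± 0.13) and Vars1 (0.35 ± 0.12). Without 6-month O4 replicate 1, 10 were higher, and 2 were without 3-month astrocyte replicate 1 or 6-month astrocyte replicate 4. Shares of all genes in those fits are not given here. In the unfolded protein response list Manf (-0.49 ± 0.15) and Edem1 (-0.46 ± 0.16) were lower and 0 of 23 higher.

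In cortical microglia 1 member changed between 3 and 10 months. Psat1 was at 33.7, 39.1 and 35.4 CPM at 3 months and 88.2, 74.8, 67.9 and 92.1 CPM at 10 months. The ages do not overlap, the change was 1.16 ± 0.18 (adjusted p = 0.00431), and it was called with each library left out in turn. That is 1 higher, 0 lower and 25 not passed of 26 tested (3.85%), where 1.94% of 12320 genes were higher and 1.27% lower (3.21% called in all). The median change was 0.16 for the members and 0.00 for all genes.

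The enzymes before and after Psat1 in serine synthesis were low in these cells. Phgdh was at 0.907, 0.453 and 2.08 CPM at 3 months and 1.44, 2.01, 1.63 and 2.91 CPM at 10 months (0.80 ± 1.0, adjusted p = 0.747), and Psph at 2.49 to 9.25 CPM, then 7.96 to 12.6 CPM (0.53 ± 0.46, adjusted p = 0.623). Atf4 was at 679, 542 and 670 CPM, then at 560, 501, 546 and 509 CPM, with overlap (-0.25 ± 0.12, adjusted p = 0.278). Ddit3 was at 30.3, 32.4 and 61.7 CPM, then at 63.2, 44.4, 58.5 and 65.1 CPM, also with overlap (0.48 ± 0.25, adjusted p = 0.338). Asns had at most 0.412 CPM in a microglia library and was not tested. Atf5 was at 6.89, 4.07 and 1.85 CPM, then at 14.2, 10.6, 8.69 and 9.08 CPM. Its values do not overlap, but the change did not pass (1.297 ± 0.48, adjusted p = 0.167).

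Astrocyte marker sums were 162 to 167 CPM at 3 months and 192 to 210 CPM at 10 months in these sorts (1 of 8 tested markers higher, 0 lower), with Aldh1l1 at 0 counts at 3 months, and endothelial sums were 70.7 to 81.3 CPM, then 105 to 127 CPM (1 of 6 higher, 0 lower). Immediate early genes fell for 3 of 14 with 0 higher, and 2 of 10 microglia markers and 1 of 4 precursor markers rose with 0 lower. Myelinating oligodendrocyte marker sums were 633 to 903 CPM at 3 months and 592 to 1150 CPM at 10 months. Of these 10 markers 0 were called, 6 had an unadjusted p under 0.05 in edgeR, and the median change was 0.57. The part of all these genes in the Psat1 change was not tested. Among pathway genes Pdia4 (0.85 ± 0.19) and Calr (0.57 ± 0.13) rose, the 2 calls of 22 unfolded protein response genes. These calls fell to 0 without 10-month replicates 1, 3 or 4 or 3-month replicate 3, and to 1 without 3-month replicate 1. Atf3 fell (-0.58 ± 0.12) and the glutamate transporter gene Slc1a2, an astrocyte marker, rose (1.07 ± 0.25). In the lists of synthetase, serine and one-carbon, transsulfuration and other target genes 0 were called.

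Cultured astrocytes were compared with and without Omomyc. Without regard to the replicate numbers, 0 of 33 members were called by edgeR (1 at an unadjusted p under 0.05, Ppp1r15a, and 0 by DESeq2), where 0.0186% of 16119 genes were (3 genes, all lower). Libraries with the same number deviated together, with correlations of their deviations of 0.628, 0.432 and 0.682. The numbers were therefore treated as pairs, though the labels do not say that they mark a shared preparation. This pairing was inferred from the same data, and the calls with the block rest on it. With the number as a block, 2 members fell, Slc7a11 and Asns, and 0 rose (6.06% called), where 4.07% of genes were called, 2.23% higher and 1.84% lower.

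Slc7a11 was at 11.3, 13.5 and 27.1 CPM with vehicle and 6.26, 8.42 and 14.5 CPM with Omomyc, in the order of the numbers. The groups overlap, since number 3 is high in both, but Omomyc is lower within each pair, by log2 ratios of -0.85, -0.68 and -0.91. In the fit with the block the change was -0.82 ± 0.09 (adjusted p = 0.00364), and without it -0.83 ± 0.42 (adjusted p = 0.798). Asns was at 25.1, 30.8 and 39.3 CPM, then at 20.6, 23.4 and 31.7 CPM, again lower in 3 of 3 pairs (-0.28, -0.40 and -0.31). The change was -0.33 ± 0.07 with the block (adjusted p = 0.0333) and -0.33 ± 0.21 without it (adjusted p = 0.837).

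**Figure D5:**
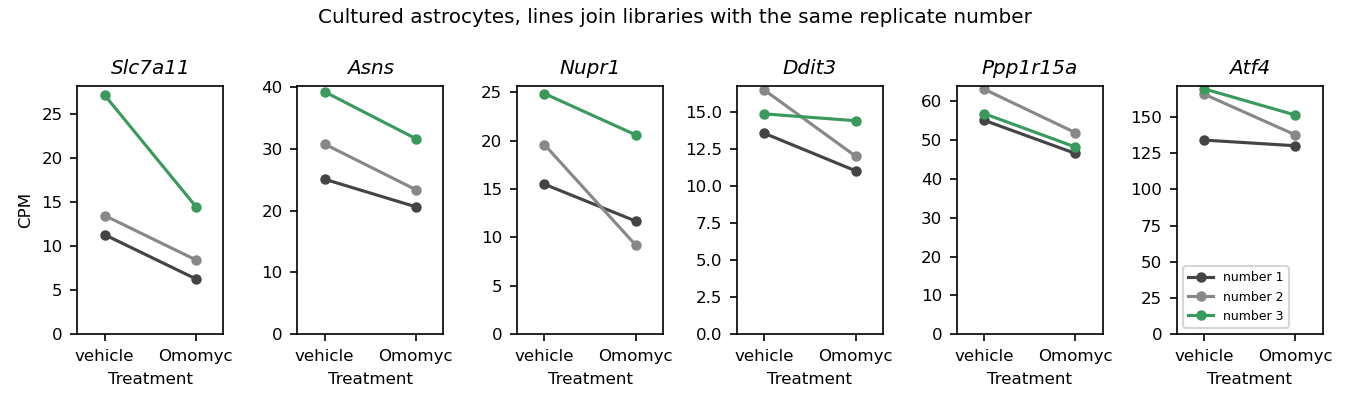
CPM of 6 members in cultured astrocytes with vehicle and with Omomyc, with lines joining libraries of the same replicate number. Each line falls, and those of Slc7a11 run from 27.1 to 14.5, 13.5 to 8.42 and 11.3 to 6.26 CPM.

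Nupr1 was at 15.5, 19.6 and 24.9 CPM, then at 11.7, 9.20 and 20.6 CPM, lower in each pair but not called with the block (-0.57 ± 0.14, adjusted p = 0.0704). Ppp1r15a was at 55.1, 63.1 and 56.8 CPM, then at 46.6, 51.9 and 48.2 CPM. Here the groups do not overlap, and the change with the block just missed the threshold (-0.25 ± 0.06, adjusted p = 0.0515). Atf4 was at 134, 166 and 169 CPM, then at 130, 138 and 151 CPM (-0.16 ± 0.06 with the block, adjusted p = 0.198). Ddit3 was at 13.6, 16.5 and 14.9 CPM, then at 11.02, 12.01 and 14.4 CPM (-0.26 ± 0.10 with the block, adjusted p = 0.186).

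In the fit without the block, 28 of the 33 members had a fold change under 0 and 5 above it. The median was -0.08, beside 0.00 for all genes. In that fit 0 members passed. The share of all genes under 0 is not given here, and the count of signs was not tested. In 3 of 3 pairs 14 members were lower, in 2 pairs 12, in 1 pair 6 and in 0 pairs 1. Over all genes the shares were 21.2%, 28.1%, 27.5% and 23.2%. Microglia markers were higher with Omomyc for 6 of 10 genes in the fit with the block (0 lower), with sums of 1537 to 2717 CPM and 1771 to 3427 CPM, and immediate early genes were lower for 3 of 14 (0 higher), with sums of 937 to 989 CPM and 825 to 878 CPM. Higher with 0 lower were also 2 of 6 ependymal (median 0.61), 2 of 8 precursor, 2 of 8 endothelial, 1 of 9 astrocyte, 1 of 7 myelinating and 1 of 8 mural and fibroblast markers, and lower with 0 higher were 1 of 8 neuron and 1 of 6 choroid plexus markers. Their part in the result was not tested.

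Of the other pathway lists in the fit with the block, 2 of 19 control genes and 2 of 17 other reported targets fell with 0 higher, while 0 of 20 synthetase and 0 of 23 unfolded protein response genes were called. Among serine and one-carbon genes 1 of 16 rose, among other transporters 1 of 19 and among transsulfuration, glutathione, proline and aspartate genes 1 of 19, each with 0 lower. Without the block 0 genes of these lists passed in edgeR.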

How the data were processed

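Raw counts per gene, as the authors deposited them, were used for 4 tables, and TPM values, which the authors deposited and which are scaled for gene length, for astrocytes and O4 cells, for comparing genes. Per the labels' protocols, poly(A) RNA of astrocytes and O4 cells was made into libraries with a Lexogen CORALL kit with molecular identifiers, that of microglia with a QuantSeq 3′ kit and that of cultures with a Watchmaker kit and Twist adapters. Tools listed per the submitters' processing notes are DESeq2, featureCounts 2.0.1, UMI-tools 1.0.1, STAR 2.7.7a and fastp, with mm10, GRCm38.p6 and GRCm39 as builds. Which build and strand setting belong to which table is not stated there, and the culture table had already lost genes by a rule that is not stated. Deposited normalized counts were not used.

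Counts were tested with edgeR 4.0.16 in R 4.3.3 (quasi-likelihood F test, TMM scaling, filterByExpr with a minimum count of 10, 1 mean per group, Benjamini-Hochberg adjustment over all genes tested), with a call at an adjusted p under 0.05. Astrocytes and O4 cells were compared in 1 joint fit of their 3- and 6-month libraries. The method was tested on simulated data. Alternatives were RLE scaling, no filter, the replicate number as a block, DESeq2 1.42.0, fits of the compared ages alone and each library left out in turn. In culture, same-numbered libraries deviated together from their group means (correlations 0.628, 0.432 and 0.682), so the block is given beside the result.

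Members and lists were chosen with earlier results of these data known. Every called member is named. Per-library values are given for up to 6 called members a comparison and for Atf4, Ddit3 and Asns, and up to 4 called genes with the smallest p are named from each pathway list. Some genes that this rule would name are not reported here. Promoter windows are RefSeq's on GRCm38.p6, and gene positions are those of GENCODE on GRCm38.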

Additional observations from a re-analysis of the deposited data

Results flagged for a closer look

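Groups of under 4 libraries (10-month astrocytes, 3-month microglia and both culture groups) were not checked for a library standing apart. Of 165 sets of a gene and a group that were checked for a library standing apart from the rest (Dixon's criterion, which chance meets in about 1 in 20 groups), 18 had one. Of these, 5 were in 6-month O4 replicate 1. There Ddit4 was at 482.0 CPM (others 80.79 to 112.3), Phgdh at 230.6 (others 134.4 to 136.4), Gpt2 at 89.49 (others 50.86 to 56.68), Cth at 4.531 (others 0.2422 to 0.4368) and Nupr1 at 4.45 CPM (others 2.184 to 2.532).

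In 6-month astrocytes, replicate 2 stood apart with Herpud1 at 80.43 CPM (others 70.62 to 73.39), Psat1 at 404.1 (others 425.4 to 433.7) and Aldh18a1 at 6.249 CPM (others 10.19 to 10.63). Other 6-month astrocyte libraries stood apart with Stc2 at 1.177 CPM in replicate 3 (others 0.4807 to 0.6503), Slc7a11 at 440.5 in replicate 5 (others 311.3 to 347.8) and Slc7a1 at 20.08 in replicate 1 (others 10.4 to 12.94). In 3-month astrocyte replicate 2, Phgdh was at 178.3 CPM (others 193.7 to 196.3) and Psat1 at 431.3 CPM (others 505.5 to 520.8). In 3-month O4 cells, Cebpg was at 32.23 CPM in replicate 3 (others 35.3 to 35.71) and Psph at 21.03 CPM in replicate 4 (others 27.72 to 28.59). In 10-month microglia, Trib3 was at 0.724 CPM in replicate 3 and Chac1 at 0.3425 CPM in replicate 4, with 0 counts in the other libraries of that age, and Pycr1 was at 1.236 CPM in replicate 1 (others 0 to 0.1712).

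The age effect differed between astrocytes and O4 cells for 8 members by the interaction test. The differences, astrocytes minus O4 cells, were -1.97 for Slc7a1, -1.77 for Slc7a5, -1.38 for Nupr1, -1.31 for Slc38a2, -1.10 for Atf5, -1.09 for Pck2, -0.58 for Xbp1 and -0.56 for Ppp1r15a.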

How the results depend on the processing

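Over all alternatives, 3349 values of single members were computed. Of these, 3190 kept their side of the threshold, 83 lost a call, 76 gained one and 0 called values changed sign. The 3190 include values called in neither fit, whose direction may differ. Without the filter on low counts, members called were 2 higher at 6 against 3 months in astrocytes (1 with the filter), 3 higher and 2 lower at 10 against 6 months (0 and 0), 5 lower in O4 cells (0) and 2 higher for the difference of age effects (0). These counts are net: without the filter the calls of Pck2 (6 against 3 months), Pycr1 and Gpt2 (10 against 3 months) in astrocytes, of Slc7a5 and Slc7a1 in O4 cells and of Slc7a5 for the difference of age effects were lost, and that of Pycr1 also in DESeq2. DESeq2 called 6 lower at 10 against 3 months in astrocytes (3 by edgeR), 2 higher and 3 lower at 10 against 6 months (0 and 0), 1 lower in O4 cells (0) and 2 higher in microglia (1). RLE scaling gave 1 lower in O4 cells, and fitting the compared ages alone gave 1 lower at 10 against 6 months. The promoter count fell from 8 to 5 with C in place of N. The cause of these shifts was not tested, and shares of all genes under these settings are not given here. With the replicate number as a block, 2 members were lower with Omomyc (0 without it), 2 higher in astrocytes at 6 against 3 months, 1 lower in O4 cells, and for the difference of age effects 1 higher and 5 lower (8 without it). The block ended the calls of Slc7a1 and Mthfd2 in astrocytes, Slc7a1 in O4 cells and Ppp1r15a, Xbp1 and Slc7a5 for the difference of age effects. Outside culture the correlations of deviations of same-numbered libraries ran from -0.175 to 0.176. The labels do not say whether these libraries share more than a number, and such correlations cannot exclude it. The block fit in culture was not repeated with libraries left out.

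With each library left out in turn, astrocytes had 1 to 2 members higher and 4 to 6 lower at 6 against 3 months, 1 to 3 higher and 1 to 5 lower at 10 against 3 months, and 0 to 1 higher and 0 lower at 10 against 6 months. O4 cells had 4 to 7 higher and 0 to 6 lower, microglia 1 higher and 0 lower, culture 0 in either direction, the cell type comparison 12 to 13 higher and 11 lower, and the difference of age effects 0 to 3 higher and 4 to 9 lower. The share of all genes is given here for only 1 of these fits, O4 cells without 6-month replicate 1. There 18.8% of all genes were higher and 15.4% lower, beside 14.9% and 9.46% with all libraries. The other ranges of counts are not set against all genes. Groups of 2 to 5 libraries, and the low counts of Trib3, Chac1, Stc2, Asns and Pycr1, limit what these data can show.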
